A study of Mus musculus with 10 samples.

Results

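BMP and ALK1 signalling was described through 10 genes in normal mouse lung and in lung squamous cell carcinoma (SCC). They are the ligands Bmp4 and Bmp5, the receptors Acvrl1 (which encodes ALK1) and Bmpr2, the co-receptor Eng, the membrane protein Tmem100, the inhibitory SMADs Smad6 and Smad7, and the target genes Id1 and Id3. Each was found by its symbol, and together they are 10 of the 24421 genes in the deposited count table. The genes were chosen by their levels in these same libraries, SCC set against normal lung, so their values are a description and carry no test.

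Total RNA was sequenced from regions that had been laser-captured out of formalin-fixed, paraffin-embedded sections. The normal group holds 5 libraries from the lungs of NIH Swiss mice that had no treatment. The SCC group holds 5 libraries from lung SCC of NIH Swiss mice treated with NTCU, a nitrosourea carcinogen that induces squamous tumours in mouse lung. Both groups are of wt genotype, with no transgene, and every SCC library is NTCU-treated while no normal library is, so tumour and carcinogen exposure cannot be told apart. The sources used here do not give age, NTCU dose or the animal behind each library. Each p-value below is thus set against library-to-library spread, part of which may be technical, and is too small where regions came from the same animal.

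BMP ligands bind pairs of type I and type II receptor kinases, which phosphorylate SMAD1, SMAD5 and SMAD9. These enter the nucleus with SMAD4 and switch on the Id genes and, as feedback, Smad6 and Smad7. In blood vessels, and above all in the capillary-rich lung, the type I receptor ALK1 works with BMPR2 and the co-receptor endoglin to read the circulating ligands encoded by Gdf2 and Bmp10. Tmem100 is a target of ALK1 signalling in endothelium, and loss of ALK1 or endoglin in people causes hereditary haemorrhagic telangiectasia while loss of BMPR2 causes heritable pulmonary arterial hypertension.

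Of the 10 genes, 6 were found in the RefSeq promoter table (GRCm38.p6), and the other genes (Tmem100, Acvrl1, Id1 and Smad7) were not. The 250 bases upstream of the start are shown for Eng and Smad6, a co-receptor and an inhibitor that were both low in SCC, and for Bmp4, whose groups overlapped. None of these 3 windows touches an exon of GENCODE M21. Capitals mark a GC-rich element of BMP SMADs, GGCGCC, or a SMAD binding element, GTCTG, on either strand (GGCGCC reads the same on both, and GTCTG reads CAGAC on the other), and the motifs do not overlap each other.
Eng, chr2:32646345-32646594, plus strand: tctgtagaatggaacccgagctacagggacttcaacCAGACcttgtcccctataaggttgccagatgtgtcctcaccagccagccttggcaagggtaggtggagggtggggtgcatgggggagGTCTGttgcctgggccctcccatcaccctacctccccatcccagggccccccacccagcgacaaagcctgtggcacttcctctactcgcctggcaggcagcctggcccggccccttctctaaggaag
Smad6, chr9:64022060-64022309, minus strand: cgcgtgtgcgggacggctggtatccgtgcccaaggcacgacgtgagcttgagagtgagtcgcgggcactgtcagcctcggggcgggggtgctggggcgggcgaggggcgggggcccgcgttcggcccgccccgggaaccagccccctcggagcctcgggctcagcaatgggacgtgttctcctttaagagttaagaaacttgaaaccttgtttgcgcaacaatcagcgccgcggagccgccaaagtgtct
Bmp4, chr14:46390670-46390919, minus strand: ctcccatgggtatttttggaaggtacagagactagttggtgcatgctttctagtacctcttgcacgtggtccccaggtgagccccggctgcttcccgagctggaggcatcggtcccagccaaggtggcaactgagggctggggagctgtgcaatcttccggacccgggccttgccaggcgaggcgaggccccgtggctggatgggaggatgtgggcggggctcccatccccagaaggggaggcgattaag
The Eng window held GTCTG at 2 places, beginning 214 and 127 bases before the start, and no GGCGCC. The Smad6 and Bmp4 windows held neither. Among the windows not shown, GGCGCC was found in that of Bmpr2, and GTCTG in those of Id3 and Bmp5. All 250 bases of the Bmpr2 and Id3 windows lie in exons of GENCODE M21, so their matches are inside annotated transcripts. Over all 32851 promoter windows of the same length, 9.59% held GGCGCC and 42.2% held GTCTG, so GTCTG is a common match.

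Library totals ran from 1457641 to 6817106 counts in normal lung and from 1004105 to 3691806 in SCC. The tissue labels were set beside marker lists. These lists were chosen with earlier results of these data known, so they describe the groups and are no independent check of the labels. All 7 squamous and basal markers rose in SCC, from a summed level of 5.79 to 30.9 CPM (read counts scaled to 1000000 per library) in normal lung to 763 to 5309 CPM. Trp63 was at 6.05 and Sox2 at 2.19 on the log2 fold change scale (edgeR adjusted p = 4.55e-08 and 0.0136). All 11 alveolar markers fell, led in level by Sftpc (-4.59) and Sftpa1 (-3.66), and their sum went from 9126 to 12720 CPM down to 650 to 1162 CPM. Of 5 airway markers 3 fell (Scgb1a1 at -5.30, Scgb3a2 at -1.23 and not called), of 11 mesenchymal markers 8 (Inmt -4.61, Mfap4 -3.55), of 8 smooth muscle and pericyte markers 5 (Myh11 -2.52, Notch3 -0.54 and not called), and of 6 tested leukocyte markers 2 (Ptprc -1.53, Csf1r -1.46). The SCC libraries were not alike. Counts were read on 1442 olfactory and vomeronasal receptor genes, a set assumed here to be little used in lung as a whole. They stood at 3.50, 0.63, 3.46, 3.69 and 0.43 CPM per kb of coding length in SCC 1 to SCC 5, against 0.04 to 0.22 in normal lung. This receptor signal was taken as the level of a background that grows with transcript length. Its share of the SCC counts of each of the 10 genes is given beside the values. Shares by coding length were smaller for each of these genes. Over all SCC libraries they were 11.3% against 40.5% for Id3, 6.36% against 28.0% for Tmem100 and 2.21% against 4.72% for Id1. All shares printed below are by transcript length and are thus the higher estimate, and which length serves better was not tested.

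Both ligands were present in normal lung and in SCC, at lower mean levels in SCC. For these as for the genes that follow, fewer cells of a type and less RNA per cell cannot be told apart in bulk libraries. Bmp4 is a ligand made by lung mesenchyme and endothelium (chromosome 14, 46383520 to 46390669, GRCm38, minus strand). It stood at 71.2, 61.5, 92.8, 49.8 and 49.4 CPM in normal 1 to normal 5 and at 42.4, 21.9, 58.4, 47.8 and 5.31 CPM in SCC 1 to SCC 5. The groups overlapped through SCC 3, and 4 of 5 SCC libraries lay below the lowest normal library. The log2 fold change was -1.02 (SE 0.47, n = 5 each). It was -2.40 when SCC was represented by SCC 2 and SCC 5 alone, and -0.57 once a background by transcript length was subtracted. The estimated background was 5.91% of the Bmp4 counts in SCC 2 and 12.2% to 17.0% in the other SCC libraries. Bmp5, a ligand of lung mesenchyme (chromosome 9, 75775364 to 75900310, plus strand), was lower in SCC by a smaller factor than the receptors were. Its values were 52.6, 40.3, 55.7, 39.4 and 51.5 CPM in normal lung and 17.9, 34.1, 26.4, 16.9 and 14.3 CPM in SCC. Each SCC library lay below each normal library, with SCC 2 closest, and the log2 fold change was -1.24 (SE 0.42, n = 5 each). The estimated background reached 74.7%, 50.1% and 83.3% of the Bmp5 counts in SCC 1, SCC 3 and SCC 4, and 7.0% and 11.6% in SCC 2 and SCC 5.

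The 3 receptor genes were about 7 to 8 times lower in SCC, and none of them overlapped between the groups. Bmpr2, the type II receptor that partners ALK1 (chromosome 1, 59763400 to 59879014, plus strand), is the gene mutated in heritable pulmonary hypertension. It stood at 2319, 1648, 2033, 2008 and 1705 CPM in normal lung and at 228, 528, 149, 156 and 310 CPM in SCC. SCC 2 and SCC 5, the libraries of low receptor signal, held the highest SCC values. The log2 fold change was -2.94 (SE 0.46, n = 5 each), or 7.08-fold lower by mean CPM, and -1.66 with the receptor signal as a covariate. The estimated background was 19.8% to 30.4% of the Bmpr2 counts in SCC 1, SCC 3 and SCC 4, and 1.53% and 1.81% in SCC 2 and SCC 5.

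Acvrl1, the gene of ALK1, was even across normal lung and uneven across SCC (chromosome 15, 101128522 to 101145336, plus strand). Its levels were 345, 251, 374, 328 and 363 CPM in normal lung and 94.3, 49.8, 25.3, 40.8 and 22.9 CPM in SCC. SCC 1 was the highest of the SCC libraries and SCC 5 the lowest, and all 5 lay below normal 2, the lowest normal library. The log2 fold change was -2.98 (SE 0.41, n = 5 each), or 7.12-fold lower by mean CPM. The estimated background as a share of the Acvrl1 counts was 13.5%, 4.59%, 49.8%, 32.9% and 6.92% from SCC 1 through SCC 5.

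Eng, which encodes the co-receptor endoglin (chromosome 2, 32646595 to 32682669, plus strand), had the least spread in SCC of the 10 genes, with an SD of 0.19 log2 CPM in each group. It stood at 352, 332, 447, 321 and 370 CPM in normal lung and at 44.3, 53.6, 42.9, 36.9 and 46.5 CPM in SCC. The SCC values sat within a narrow band far below the normal ones. The log2 fold change was -3.13 (SE 0.36, n = 5 each), or 8.12-fold lower by mean CPM. The estimated background was 27.0% to 34.3% of the Eng counts in SCC 1, SCC 3 and SCC 4, and 4.01% and 3.20% in SCC 2 and SCC 5. The log2 ratio of Acvrl1 to Eng was -0.14 ± 0.19 in normal lung and -0.13 ± 0.83 in SCC (SD, n = 5 each), so the mean ratio was alike in both groups while its spread was wider in SCC. Exons of Eng overlap those of Fpgs, and exons of Bmp4 those of Gm15217, on opposite strands. The same holds for Acvrl1 with Gm16031 and for Bmp5 with Gm26903, which are not among the counted genes. The sources used here do not state how strand was handled in counting, so reads of these pairs may have been mixed.

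Tmem100 showed the largest difference of the 10 genes. It encodes a small membrane protein of lung endothelium and lies on chromosome 11 (90030348 to 90036508, plus strand). Its levels were 362, 239, 529, 336 and 267 CPM in normal lung and 21.7, 12.2, 12.1, 15.9 and 0.82 CPM in SCC. Normal lung held 6228 counts in all, and the SCC libraries held 23, 45, 22, 16 and 2. The groups lay far apart, and SCC 5 was far below the other SCC libraries. The log2 fold change was -4.96 (SE 0.54, n = 5 each), or 27.6-fold lower by mean CPM, and -4.68 without SCC 5. The estimated background made up 9.1% of the Tmem100 counts in SCC 2, 28.6% to 50.5% in SCC 1, SCC 3 and SCC 4, and 94.0% of the 2 counts in SCC 5.

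The inhibitory SMADs were lower in SCC, Smad6 by more than Smad7. Smad6, which blocks BMP receptor signalling by preference (chromosome 9, 63953076 to 64022059, minus strand), stood at 186, 138, 140, 85.6 and 177 CPM in normal lung and at 18.9, 37.4, 13.2, 27.9 and 7.35 CPM in SCC. Each SCC library lay below each normal library, with a log2 fold change of -2.93 (SE 0.42, n = 5 each). The Smad6 levels of SCC 1, SCC 3 and SCC 4 hold a large estimated background, 55.2%, 77.9% and 39.3% of the counts, against 4.99% in SCC 2 and 17.6% in SCC 5. Smad7, which blocks both the BMP and the TGF-beta receptors (chromosome 18), stood at 146, 154, 104, 109 and 94.7 CPM in normal lung and at 64.1, 30.9, 33.0, 56.8 and 11.4 CPM in SCC. The groups did not overlap here either, and the log2 fold change was -1.79 (SE 0.41, n = 5 each). Its estimated background as a share of counts was 23.4%, 8.70%, 44.8%, 27.8% and 16.3% from SCC 1 through SCC 5. SCC 5 was the lowest library for both genes. The log2 ratio of Smad6 to Smad7 was 0.24 ± 0.50 in normal lung and -0.88 ± 0.76 in SCC (SD, n = 5 each), where SCC 2 alone (0.27) lay within the normal range of -0.34 to 0.90.

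The Id genes, both of them BMP targets that encode inhibitors of basic helix-loop-helix transcription factors, differed from each other in how they stood in SCC. Id1 (chromosome 2, 152736251 to 152737410, plus strand) had 39.7, 31.4, 45.3, 36.3 and 46.0 CPM in normal lung and 77.3, 39, 17.1, 25.9 and 55.9 CPM in SCC. The SCC libraries fell on both sides of the normal range, with SCC 1 and SCC 5 above it and SCC 3 and SCC 4 below it. The log2 fold change was 0.00 (SE 0.44, n = 5 each), and it ran from -0.78 to 0.33 over the 20 alternatives. The estimated background was 23.5% and 16.5% of the Id1 counts in SCC 3 and SCC 4, and 5.26% or less in the other SCC libraries. Id3 (chromosome 4, 136143497 to 136145755, plus strand) had 40.5, 45.1, 57.1, 61.0 and 26.1 CPM in normal lung and 8.48, 2.44, 4.40, 6.97 and 8.57 CPM in SCC. Every SCC library lay below every normal library, and the log2 fold change was -3.03 (SE 0.54, n = 5 each). The Id3 values in SCC rest on few counts, 9, 9, 8, 7 and 21 in SCC 1 to SCC 5. The estimated background was 52.8%, 32.9%, 100.5%, 67.7% and 6.48% of those counts.

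The log2 ratio of CPM of Id1 to Id3 was -0.16 ± 0.60 in normal lung and 2.69 ± 0.88 in SCC (SD, n = 5 each). Its values were 3.12, 3.93, 1.89, 1.82 and 2.68 in SCC 1 to SCC 5, all above the highest normal value of 0.81. The 2 genes had thus drawn apart in each SCC library. Such a ratio within a library does not depend on how libraries are scaled.

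Of the 10 genes, 8 were called lower in SCC by edgeR, where 8.68% of the 13203 tested genes were called lower and 12.5% higher. Bmp4 and Id1 were not called. In 8 of the 10, each SCC library was below each normal library, against 5.77% of tested genes. The median log2 fold change was -2.93 for the 10 genes and 0.07 for all tested genes. Since this contrast chose the genes, nothing is read from these counts.

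**Figure D1:**
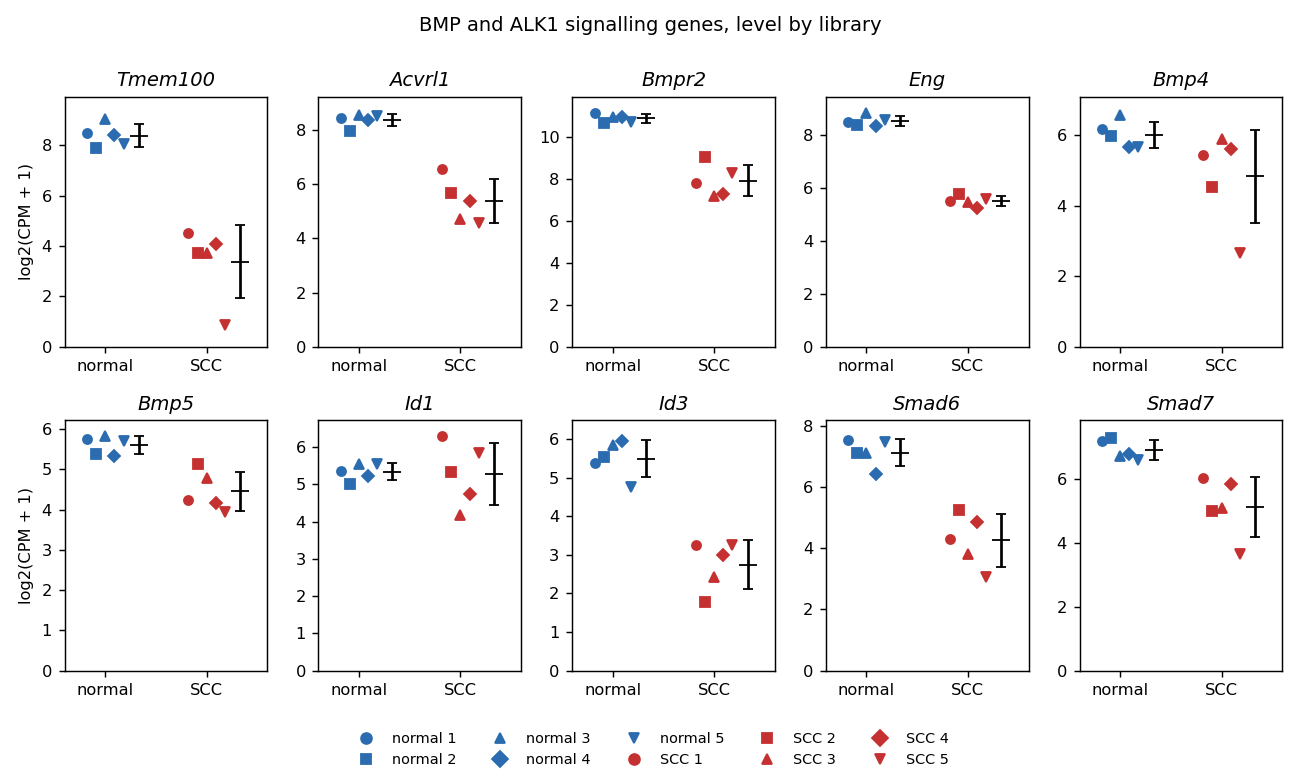
Level of the 10 genes by library, as log2(CPM + 1) on axes that start at 0, normal libraries in blue and SCC libraries in red, a shape per replicate, and a black bar at the mean ± SD (n = 5). The groups lie apart for every gene but Bmp4 and Id1, Tmem100 shows the largest gap, and SCC 5 is the lowest SCC library for Tmem100 (0.82 CPM) and Bmp4 (5.31 CPM).

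**Figure D2:**
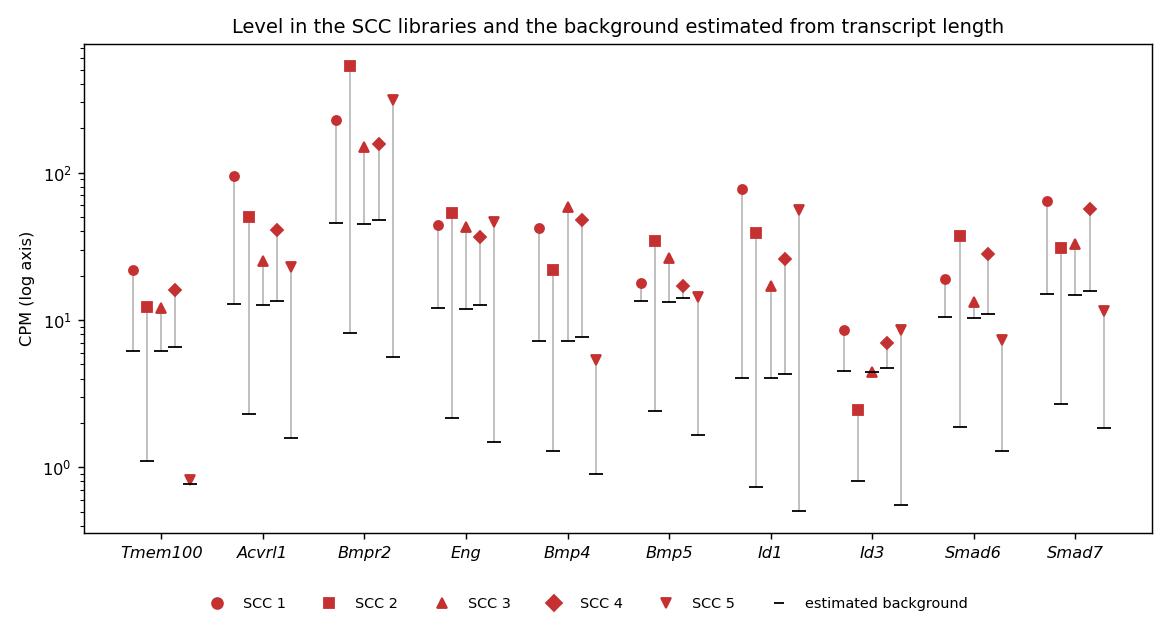
Level of the 10 genes in SCC 1 to SCC 5 in CPM (log axis, red markers), with a black dash at the background estimated from the longest transcript and the receptor signal of the library. For Bmpr2, Eng, Bmp4 and Id1 the dash is at 34.3% of the level or less in every library. Id3 in SCC 3 (4.40 CPM) and Tmem100 in SCC 5 (0.82 CPM) stand at the dash.

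Compared per kb of the longest transcript, the order of the genes differed between the tissues. In normal lung the mean levels were 196 CPM per kb for Tmem100, 151 for Bmpr2, 106 for Eng and 91.2 for Acvrl1. Smad6 followed at 48.9 CPM per kb, then Id3, Id1, Bmp4 and Smad7 between 35.9 and 28.4, and Bmp5 at 12.5. The libraries of each gene overlapped those of its neighbours in this order, except that Acvrl1 lay above Smad6 and Smad7 above Bmp5. In SCC Id1 was highest at 37.1 CPM per kb (SD 20.8), followed by Bmpr2 (21.3), Bmp4 (17.0), Eng (13.1) and Acvrl1 (12.8). Smad7 (9.17), Tmem100 (7.10), Smad6 (7.05), Bmp5 (5.74) and Id3 (4.83) came after these, and the libraries of each gene overlapped those of its neighbours. Tmem100 thus went from rank 1 to rank 7, and Id1 from rank 7 to rank 1.

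Most endothelial markers were lower in SCC. Of 24 markers 18 fell and 0 rose, 17 did not overlap between the groups, and their median log2 fold change was -2.90, led in level by Calcrl (-3.46) and Ptprb (-3.49). Their summed level went from 7710 to 10120 CPM in normal lung to 747 to 1427 CPM in SCC, and no marker was at 0 in all SCC libraries. The summed mesenchymal markers went from 2177 to 2669 CPM down to 382 to 843 CPM, and those of smooth muscle and pericytes from 697 to 1201 CPM down to 318 to 394 CPM. The part of endothelial, mesenchymal or smooth muscle content in the values above was not tested. To set the genes beside these markers, each was divided by the geometric mean of the 24 markers within its library. This mean itself was lower in SCC by 2.53 on the log2 scale (7.17 to 4.64 log2 CPM). All 24 markers weigh alike in it, and their SCC counts hold background too. The estimated share ran from 3.43% for Calcrl to 60.6% for Emcn and 63.2% for Robo4.

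For the receptor genes, Id3 and Smad6 the mean ratio differed little, with a wide spread in SCC. The difference between SCC and normal lung in this log2 ratio was -0.47 for Acvrl1, -0.45 for Bmpr2, -0.48 for Eng, -0.38 for Id3 and -0.40 for Smad6. These turned to 0.50, 0.52, 0.49, 0.59 and 0.57 when Pecam1, Cdh5 and Cldn5 alone stood for endothelium, so their direction depends on the markers. With the 24 markers and background subtracted by coding length, they were -0.13, -0.03, -0.18, -0.12 and -0.32 in the same order. Against the 24 markers, 4 of 5 SCC libraries lay below the lowest normal library and 1 above the highest for Acvrl1, 3 below and 2 above for Bmpr2, and 2 below and 2 above for Id3. For Eng 3 and for Smad6 2 lay below, and 0 above. The mean ratio of Tmem100 was lower in SCC with either set of markers. Its log2 ratio to the 24 markers was 1.32, 0.89, 1.61, 1.05 and 1.19 in normal lung and 0.12, -1.20, -1.34, -1.01 and -3.97 in SCC. All 5 SCC libraries lay below the lowest normal one, and the mean difference was -2.69. With the 3 markers it was -1.72, and after background subtraction by coding length, not by transcript length, it was -2.35. In both cases SCC 1 (0.19 and 1.08) lay within the normal range (-0.07 to 0.37 and 0.91 to 1.61). The other SCC libraries lay below that range. Id1 went the other way. Its log2 ratio was -1.86, -2.02, -1.94, -2.16 and -1.34 in normal lung and 1.93, 0.46, -0.85, -0.32 and 1.81 in SCC, with all 5 SCC libraries above the highest normal one and a mean difference of 2.47. Bmp5 also lay above in all 5 SCC libraries (mean difference 1.36), Bmp4 in 4 of 5 (1.31) and Smad7 in 2 of 5 (0.71). After background subtraction by coding length the mean differences were 2.88 for Id1, 1.58 for Bmp5, 1.67 for Bmp4 and 1.08 for Smad7.

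**Figure D3:**
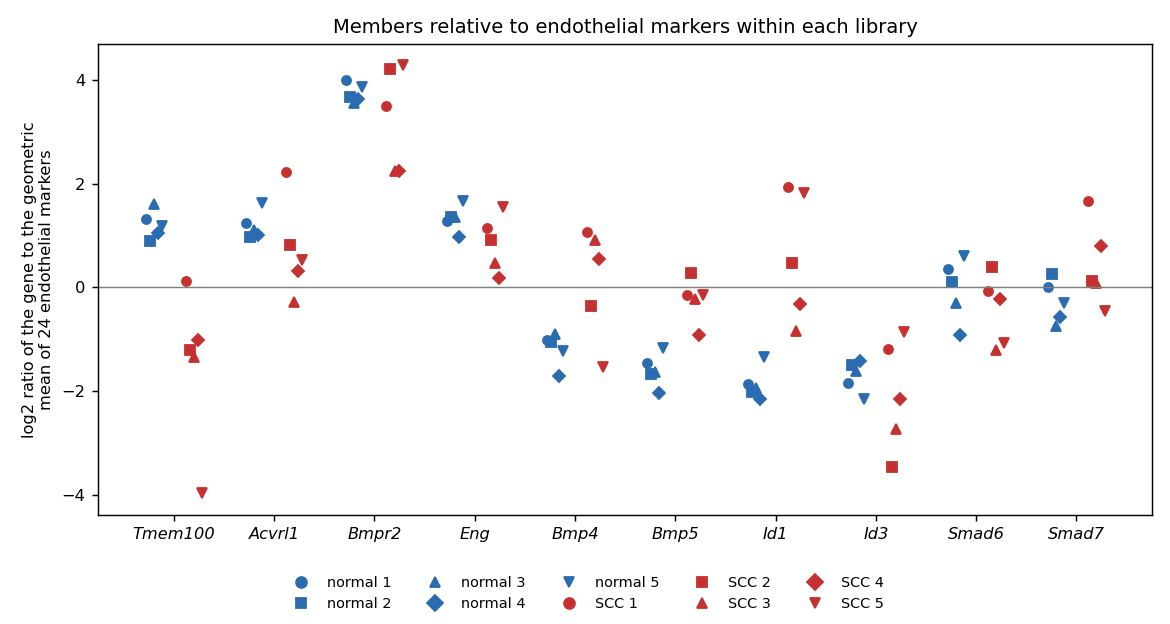
Log2 ratio of each of the 10 genes to the geometric mean of 24 endothelial markers in the same library, blue for normal lung and red for SCC, with a shape for each replicate. Tmem100 in SCC lies below its normal values (-1.34 to 0.12, and -3.97 in SCC 5), while Id1 and Bmp5 lie above theirs. Acvrl1, Bmpr2 and Id3 have SCC libraries on both sides of theirs, and Eng and Smad6 have some below and none above.

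The genes with the pattern most like Tmem100 were sought among the 11461 tested genes whose mean in normal lung was 5 CPM or more. Likeness was the root mean square difference between log2 CPM profiles over the 10 libraries, each centred on its own normal mean. The closest were Fmo1, a flavin monooxygenase (0.64), Ogn, a small proteoglycan (0.70), Inmt, a methyltransferase (0.80), Mme, a membrane peptidase (0.85), and Sftpc, a surfactant protein (0.85). None of these 5 is on the BMP or endothelial lists, and Inmt and Sftpc are on the mesenchymal and alveolar ones. Of the other 9 genes, Acvrl1 came closest to Tmem100 (1.64, rank 73), ahead of Smad6 (rank 84), Eng (rank 97), Bmpr2 (rank 136) and Id3 (rank 154). Smad7 was at rank 310, Bmp4 at 766, Bmp5 at 1044 and Id1 at 5470. This search used the contrast that chose the genes and is a description of 10 libraries.

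The rest of the BMP pathway was read from 53 further genes, of which 38 were tested, and 3 of these rose and 12 fell (median -0.57). Over all 13203 tested genes 12.5% were called higher and 8.68% lower (median 0.07). The same shares stand beside each count by role that follows, and those counts rest on few genes. Among 11 other ligand genes the 4 tested went both ways (1 higher, 2 lower, median -0.14). Bmp7, a ligand made by epithelia, rose in SCC. It stood at 14.3, 18.5, 8.07, 6.56 and 11 CPM in normal lung and at 60.3, 96.2, 177, 139 and 113 CPM in SCC, with no overlap. Its log2 fold change was 3.23 (SE 0.44, n = 5 each; adjusted p = 7.34e-06 by edgeR's quasi-likelihood test with Benjamini-Hochberg adjustment), and the estimated background was 5.43% of its SCC counts. Bmp6, best known for its part in iron balance, fell from 64.4, 104, 109, 77.9 and 79.6 CPM in normal lung to 8.48, 23.6, 16.5, 21.9 and 19.6 CPM in SCC (log2 fold change -2.38, SE 0.40, edgeR adjusted p = 0.000116). Bmp3, an atypical ligand, fell by 1.68 on the log2 scale (SE 0.43, edgeR adjusted p = 0.00528). Bmp2 was at 1.41 (SE 0.82) and not called (edgeR adjusted p = 0.245). Gdf2, whose product is a ligand of ALK1, did not pass the filter on low counts, with 0 to 3 counts in a normal library and 8 to 33 in an SCC library, of which the estimated background was 55.5%. Where other settings let Gdf2 be tested it was called higher, with no filter (edgeR adjusted p = 0.0122), at least 1 CPM in 5 libraries (edgeR adjusted p = 0.00791), the DESeq2 Wald test (adjusted p = 0.000308), and without normal 2 or normal 5 (edgeR adjusted p = 0.0202 and 0.00856), at log2 fold changes of 3.68 to 4.40.

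Bmp7 and Bmp4 went apart within the libraries. The log2 ratio of their CPM, Bmp7 over Bmp4, was -2.51 ± 0.70 in normal lung and 2.02 ± 1.43 in SCC (SD, n = 5 each). The highest normal value was -1.72, and the SCC values ran from 0.50 in SCC 1 to 4.36 in SCC 5. The ratio joins a gene chosen on this contrast with a gene named for passing it, and is given without a test.

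**Figure D4:**
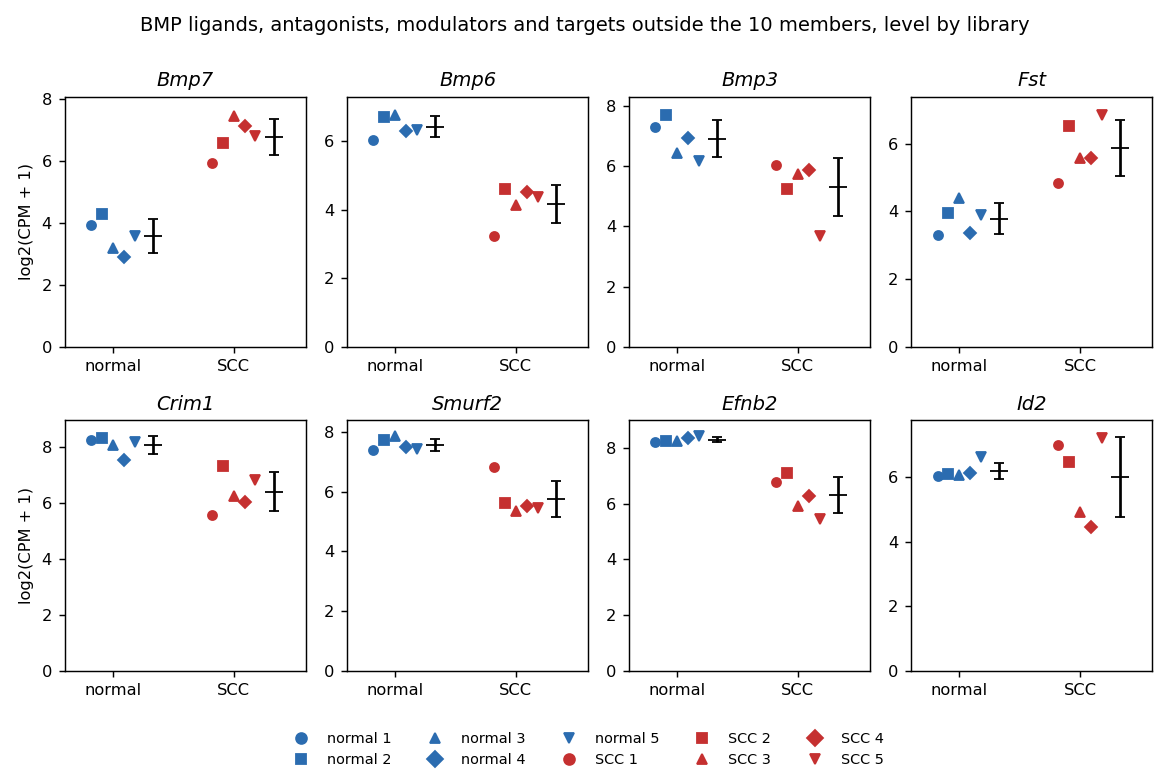
Level of 8 BMP pathway genes outside the 10, as log2(CPM + 1) by library, normal libraries in blue and SCC libraries in red, and a black bar at the mean ± SD (n = 5). Bmp7 and Fst lie above normal lung in all SCC libraries, Bmp6, Bmp3, Crim1, Smurf2 and Efnb2 are lower, and Id2 spreads to both sides of normal lung.

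Of 6 other BMP receptor genes tested, 0 rose and 1 fell (median -0.03). Bmpr1a, the broadly expressed type I receptor, had 91.3, 53.3, 119, 138 and 95.4 CPM in normal lung and 69.8, 127, 47.9, 54.8 and 94.3 CPM in SCC. The groups overlapped, at a log2 fold change of -0.46 (SE 0.37, edgeR adjusted p = 0.432). The log2 ratio of Bmpr2 to Bmpr1a was 4.34 ± 0.45 in normal lung and 1.72 ± 0.21 in SCC (SD, n = 5 each), the lowest normal value being 3.86 and the highest SCC value 2.06. Acvr2a, a type II receptor, was at -0.50 (SE 0.45, edgeR adjusted p = 0.479). Rgmb, a BMP co-receptor, fell by 1.93 (SE 0.52, edgeR adjusted p = 0.00898), with an estimated background of 77.3% of its SCC counts. It was not called with SCC 2 and SCC 5 alone (-1.98, adjusted p = 0.0888).

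The SMADs that carry the signal were not called in either direction, 0 of 4 with edgeR and 0 of 4 at an unadjusted p under 0.05 (median -0.19). Smad5 stood at 84.5 to 122 CPM in normal lung and at 46.2, 101, 52.3, 38.8 and 226 CPM in SCC, with a log2 fold change of -0.31 (SE 0.43, edgeR adjusted p = 0.679). Without SCC 5, its highest library, Smad5 was called lower (-1.05, edgeR adjusted p = 0.0324). Smad4, the shared partner, was at -0.34 (SE 0.42, edgeR adjusted p = 0.622). With limma-voom 2 of the 4, Smad5 and Smad4, were called lower, and DESeq2 called none.

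Antagonists, which bind BMP ligands outside the cell or block their receptors, went both ways, with 2 of 10 tested higher and 4 lower (median -0.95). Fst, follistatin, which binds activins and some BMPs, rose from 8.95, 14.3, 20.2, 9.26 and 13.7 CPM in normal lung to 27.3, 91.3, 46.2, 46.8 and 115 CPM in SCC (log2 fold change 2.20, SE 0.48, edgeR adjusted p = 0.00144). The groups did not overlap, with SCC 1 closest to normal lung. Crim1, a membrane protein that binds BMPs, fell by 1.68 (SE 0.38, edgeR adjusted p = 0.00219).

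The other antagonists gained or lost their calls with the processing. Sostdc1, a secreted antagonist, rose by 4.0 (SE 1.01, edgeR adjusted p = 0.00522) on 0 to 4 counts in a normal library and 11 to 25 in an SCC library, and was not called with SCC 2 and SCC 5 alone (3.25, adjusted p = 0.151). Chrdl1, a chordin-like antagonist, fell by 1.71 (SE 0.53, edgeR adjusted p = 0.0231), and was not called with upper-quartile factors (-1.48, adjusted p = 0.0556) or after background subtraction by coding length (-1.69, adjusted p = 0.0548). Nbl1, a secreted antagonist, fell by 1.01 (SE 0.36, edgeR adjusted p = 0.0475) and lost its call in 13 of 20 alternatives, among them those without normal 2, 3 or 5 or SCC 1, 3 or 4 (adjusted p = 0.0511 to 0.0994). Twsg1, a chordin partner, was at -0.89 (SE 0.41, edgeR adjusted p = 0.132). It was called lower in 3 of 20 alternatives, among them that without SCC 5 (-1.26, edgeR adjusted p = 0.0219). Bmper, an endothelial regulator of BMPs, was at -1.51 (SE 0.58, edgeR adjusted p = 0.0632). It was called lower in 8 of 20 alternatives, among them those without normal 1 or normal 5 (-1.75 and -1.82, edgeR adjusted p = 0.0469 and 0.0259).

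Of 6 intracellular modulators 0 rose and 3 fell (median -1.15). Smurf2, a ubiquitin ligase that marks SMADs and receptors for decay, fell from 166 to 231 CPM in normal lung to 112, 47.9, 40.2, 44.8 and 42.9 CPM in SCC (-1.87, SE 0.37, edgeR adjusted p = 0.00063). SCC 1 stood apart as the highest SCC library. Fkbp1a, which holds type I receptors silent, fell by 1.95 (SE 0.39, edgeR adjusted p = 0.000637), and Ski, a repressor of SMAD complexes, by 1.48 (SE 0.35, edgeR adjusted p = 0.00296). Smurf1 was at 0.58 (SE 0.39, edgeR adjusted p = 0.33). Ppm1a, a SMAD phosphatase, was at -0.78 (SE 0.41, edgeR adjusted p = 0.2) and was called without SCC 5 (-1.27, adjusted p = 0.0183).

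Of 8 other BMP and ALK1 targets tested, 0 rose and 2 fell (median -0.43). Efnb2, the arterial ligand ephrin-B2, fell from 299, 307, 304, 330 and 344 CPM in normal lung to 110, 138, 60.0, 76.7 and 43.3 CPM in SCC. The normal libraries were close together and all SCC libraries lay below them (-2.03, SE 0.37, edgeR adjusted p = 0.000282). Gja4, a connexin of arterial endothelium, fell by 1.91 (SE 0.65, edgeR adjusted p = 0.0362), and was not called without normal 3 (-1.96, adjusted p = 0.0538), without normal 4 (-1.77, adjusted p = 0.0815) or with SCC 2 and SCC 5 alone (-2.53, adjusted p = 0.0827). Id2, of the same family as Id1 and Id3, had 65.1, 67.0, 66.6, 68.7 and 98.8 CPM in normal lung and 126, 87.2, 29.2, 20.9 and 147 CPM in SCC. As for Id1, SCC 1 and SCC 5 were above the normal range and SCC 3 and SCC 4 below it, and the log2 fold change of Id2 was 0.07 (SE 0.44, edgeR adjusted p = 0.937). Msx2, a homeobox target, was at -1.41 (SE 0.52, edgeR adjusted p = 0.056). It was called lower without normal 1, normal 2, normal 3, normal 5, SCC 1 or SCC 5 (-1.85 to -1.49, adjusted p = 0.0113 to 0.0486).

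The TGF-beta and activin branch, which shares Eng and Smad7 with the BMP branch, had 2 of 18 tested genes higher and 4 lower (median -0.17). Ltbp4, a binding protein of latent TGF-beta, fell by 2.13 (SE 0.37, edgeR adjusted p = 0.000152). Tgfbr3, the co-receptor betaglycan and the relative of Eng, fell by 1.74 (SE 0.40, edgeR adjusted p = 0.00249), from 115 to 150 CPM in normal lung to 8.98 to 61.1 CPM in SCC. Ltbp1 fell by 1.20 (SE 0.34, edgeR adjusted p = 0.012), and was not called with SCC 2 and SCC 5 alone (-1.13, adjusted p = 0.0816). Skil, a repressor of SMAD complexes, was at -0.22 (edgeR adjusted p = 0.75) and Ltbp2 at -0.13 (edgeR adjusted p = 0.839).

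Other calls of that branch depended on single libraries and on the processing. Tgfbr2, the type II receptor, fell by 1.14 (SE 0.38, edgeR adjusted p = 0.0333), with SCC 2 at 389 CPM inside the normal range of 350 to 441 CPM and the other SCC libraries at 122 to 165 CPM. Its call was lost in 11 of 20 alternatives, among them those without normal 4 or 5 or SCC 1, 3 or 4 (adjusted p = 0.0525 to 0.0735). Inhba, the activin A subunit, rose by 2.57 (SE 0.87, edgeR adjusted p = 0.0349). The estimated background was 66.6% of its SCC counts, and 19.3% in SCC 2 and SCC 5. Its call was lost in 8 of 20 alternatives, among them those without normal 1, 2 or 4 or SCC 3 or 4 (edgeR adjusted p = 0.0708 to 0.0841).

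**Figure D5:**
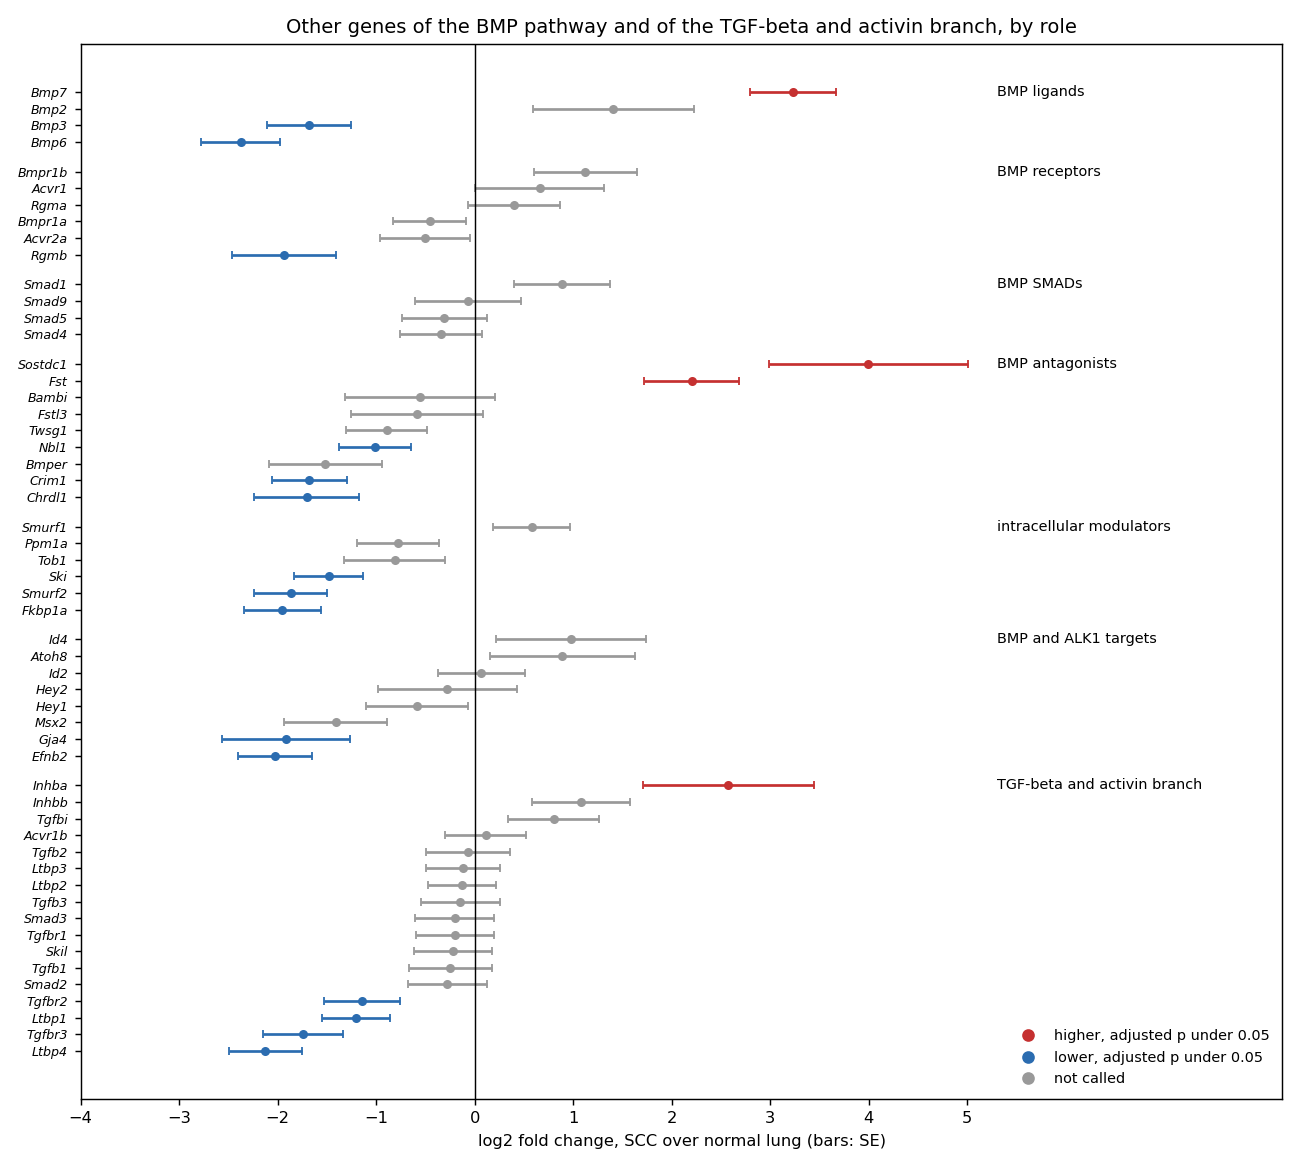
Log2 fold change, SCC over normal lung, with its SE, for tested genes of the BMP pathway outside the 10 and of the TGF-beta and activin branch, grouped by role, with red for genes called higher, blue for lower and grey for not called. The SMADs and most receptors lie near 0, Bmp7, Sostdc1, Fst and Inhba are the genes shown that were called higher, and Bmp6 (-2.38) is the lowest.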

How the data were processed

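Laser-captured, formalin-fixed regions of normal lung (5 libraries) and NTCU-induced lung SCC (5 libraries) were sequenced as total RNA, with a stranded kit for picogram inputs per the labels' protocols. The authors deposited a table of raw read counts by gene symbol, without normalization. TopHat2 2.0.1, HTSeq 0.6.1, cutadapt 1.9.1 and DESeq2 are listed, with the build mm10, per the submitters' processing notes. The sources used here do not give the annotation, the strand setting or how reads with several matches were treated.

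The whole table was fitted with edgeR 4.0.16 (R 4.3.3). Genes of low count were removed by filterByExpr, which left 13203 genes. TMM factors, a robust quasi-likelihood test and Benjamini-Hochberg adjustment followed, and a gene was called at an adjusted p under 0.05. The SE is the log2 fold change over the square root of F. CPM is scaled to 1000000 by a library's total counts, and mean log2 CPM uses a prior count of 2. Ratios to markers add 0.5 counts. Precision is limited by totals of 1004105 to 6817106 counts.

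The 10 genes and all lists (6 BMP lists, 1 TGF-beta list, 7 marker lists) were chosen with earlier results of these data known. Named were the 10 genes, of each pathway list the genes that passed (at most 5 per direction) and the 2 of highest mean CPM that did not, the 2 markers per list of highest mean CPM in normal lung, and the 5 genes most like Tmem100. Some genes that enter the lists' counts are not reported by name here.

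GENCODE M21 (GRCm38) gave lengths and positions and matched 24046 of the symbols, 670 of them through an older symbol. The receptor signal is the CPM of 1442 chemosensory receptor genes divided by their coding length in kb, genes above the 98th percentile of a library set to it. The alternatives were 20 settings: leaving out each of the 10 libraries, the Wald test of DESeq2 1.42.0, limma-voom (limma 3.58.1) with sample quality weights, size factors of DESeq2, upper-quartile factors, a minimum of 1 CPM in 5 libraries, no minimum, SCC 2 and SCC 5 alone, the receptor signal as a covariate, and background subtraction by coding length or, added after seeing the data, by transcript length.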

Additional observations from a re-analysis of the deposited data

Results flagged for a closer look

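In 6 of 82 groups of 5 libraries, 1 library stood farther from the others than Dixon's 95% limit allows, and chance gives about 1 in 20 groups. Tmem100 in SCC 5 was at 0.69 log2 CPM, on 2 counts, where the other SCC libraries had 3.69 to 4.49. Gja4 in SCC 5 was at 1.5 log2 CPM, against 2.92 to 3.29 in the others, and Tgfbr3 in SCC 5 at 3.29, against 5.37 to 5.95. Smurf2 in SCC 1 was at 6.82 log2 CPM, against 5.36 to 5.61. Ski in SCC 2 was at 7.42 log2 CPM, against 6.45 to 6.70, and Tgfbr2 in SCC 2 at 8.61, against 6.94 to 7.37.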

How the results depend on the processing

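The log2 fold changes of Tmem100, Acvrl1, Bmpr2, Eng, Bmp4, Bmp5, Id3, Smad6 and Smad7 were negative in all 20 alternatives, and that of Id1 in 10 of 20. Bmp4 ran from -3.03 (receptor covariate) to -0.57 (background by transcript length), Bmpr2 from -3.66 to -1.66 and Smad7 from -3.35 to -1.56. Of the 10 genes 5 were called lower with the receptor covariate, where 375 of all 13203 tested genes were. In the other settings 7 to 9 were, and the share over all genes also changed with the setting, as given below. Since this contrast chose the genes, nothing is read from these counts either. Upper-quartile factors shifted the median over all genes by 0.19, leaving out a library by -0.22 to -0.03, and no filter by -0.38. Over all genes, those called higher numbered 5470 of 22919 tested with no filter and 3551 of 17275 with at least 1 CPM in 5 libraries. They numbered 6378 of 22919 with DESeq2, 3257 of 13203 with limma-voom and 592 of 14305 with SCC 2 and SCC 5 alone. With the covariate they numbered 466 of 13203, and after background subtraction by transcript length 920 of 11521. Those called lower numbered 2072 of 22919 with no filter and 2766 of 13203 with limma-voom. With SCC 2 and SCC 5 alone they numbered 738 of 14305, and with the covariate 375 of 13203.

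Of the other BMP genes, 7, 6, 8 and 5 were higher with no filter, at least 1 CPM, DESeq2 and limma-voom, and 21 and 5 lower with limma-voom and the covariate. Ligands called higher were 4, 3, 4 and 2 in the same 4 settings and 1 to 2 with a library left out, and 1 ligand was lower with the covariate. Of the receptors 1 was higher and 2 lower with limma-voom, and 0 lower with SCC 2 and SCC 5 alone or the covariate. Of the SMADs 1 (Smad1) was higher with the covariate, and 2 were lower with limma-voom and 0 to 1 with a library left out. Antagonists called higher were 4 with DESeq2 and 1 each with SCC 2 and SCC 5 alone, the covariate and background subtraction by transcript length, and 2 were lower with upper-quartile factors or the covariate. Modulators called lower were 5 with no filter or limma-voom and 1 with the covariate. Targets called lower were 4 with limma-voom, 1 each with upper-quartile factors, SCC 2 and SCC 5 alone and the covariate, and 1 to 2 with a library left out. In the TGF-beta branch 1 and 0 were higher after background subtraction by coding and by transcript length, 0 to 2 with a library left out, and 2 and 0 were lower with SCC 2 and SCC 5 alone and the covariate. Id2 was called lower with limma-voom (-1.20, adjusted p = 0.0103). With the covariate Bmp6, Crim1, Fkbp1a, Ski, Ltbp4 and Tgfbr3 lost their calls. The cause of these changes was not tested, and the covariate is close to a split of the groups, normal libraries all lying under the SCC libraries. No paired analysis was possible because the labels give the groups no shared replicate numbers. Intervals of counts are wide for Tmem100 and Id3 in SCC, which rest on 108 and 54 counts in all.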
